A study of Mus musculus with 2 samples.

Results

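Messenger RNAs of the interleukin-6 (IL-6) family and its shared receptor gp130, together with Sprr1a, were examined in mouse hearts 3 days after myocardial infarction. The 10 genes were the ligand genes Il6, Il11, Lif and Osm, the receptor genes Il6ra, Lifr, Osmr and Il6st, the feedback inhibitor gene Socs3, and Sprr1a. They were chosen by gene symbol from results of these same arrays, and each probe set that names 1 of them alone was used, 21 in all, out of 34945 such probe sets for 18193 genes. The values that led to this choice are the infarct and sham values given here, which are therefore a description. Infarcted hearts came from C57BL/6J males of 10 weeks whose left anterior descending coronary artery was tied off permanently, and sham-operated hearts from males of the same strain and age whose artery was not ligated. Both kinds of heart were taken 3 days after surgery. RNA from 3 mice was mixed in each group and hybridised to 1 Affymetrix array, so that each group is a single pooled sample. With no replicates, the pools could not be tested against each other and the spread between mice is unknown. The labels name the heart as the tissue, and infarcted and remote muscle are not separated.

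Cytokines of the IL-6 family signal through gp130, the protein encoded by Il6st, which pairs with a receptor chain that differs between ligands. IL-6 binds the receptor encoded by Il6ra, leukaemia inhibitory factor (Lif) uses the LIF receptor (Lifr), and oncostatin M (Osm) in mice signals mainly through its own receptor (Osmr). The paired chains activate JAK kinases, which phosphorylate the transcription factor STAT3, and SOCS3 is a STAT3-induced protein that binds gp130 and shuts the signal down. In the heart these cytokines are known for effects on cardiomyocyte survival and hypertrophy, and Sprr1a, best known for a small proline-rich protein of the skin's cornified envelope, is induced in rodent cardiomyocytes by gp130 cytokines and by stress.

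All values are on the log2 scale on which the authors deposited them, and a difference is infarct minus sham. For each gene the brightest probe set (by the mean of both arrays) was taken, and the gene was compared if that probe set reached the array median (6.35 in the infarct pool, 6.36 in the sham pool) on at least 1 array. A difference of 1 (2-fold) or more was counted. Of the 10 genes, 9 were bright enough to be compared and Lif was not. Among those 9, Sprr1a, Il6 and Socs3 (3 genes) passed 2-fold upwards in the infarct pool, whereas 0 passed it downwards. Over all 11961 genes compared, 446 (3.73%) were 2-fold higher and 151 (1.26%) were 2-fold lower. Because the genes were picked with this contrast in view, nothing is read from the count. The median difference of the 9 genes was 0.10, and that of all genes compared was 0. Il6 passed the brightness rule only through the infarct pool, so that its inclusion required a difference.

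The bases before the start sites of the 3 genes counted as higher are shown first, since these genes had the largest differences of the set. Each line gives the 250 bases before the annotated start, 5′ to 3′, from RefSeq (GRCm38.p6), with matches to 3 motifs in capitals.
Sprr1a, chr3:92485882-92486131 (minus strand): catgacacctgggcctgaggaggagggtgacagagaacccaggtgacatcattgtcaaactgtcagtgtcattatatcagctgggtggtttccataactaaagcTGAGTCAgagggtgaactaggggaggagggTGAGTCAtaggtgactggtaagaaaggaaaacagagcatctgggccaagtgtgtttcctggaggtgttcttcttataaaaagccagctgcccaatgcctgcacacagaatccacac
Il6, chr5:30012864-30013113 (plus strand): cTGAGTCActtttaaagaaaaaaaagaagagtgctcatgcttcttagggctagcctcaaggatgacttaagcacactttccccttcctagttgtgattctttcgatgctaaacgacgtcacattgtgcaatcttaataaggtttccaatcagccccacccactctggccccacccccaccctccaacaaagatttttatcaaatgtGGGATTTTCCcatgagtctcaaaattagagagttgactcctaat
Socs3, chr11:117969367-117969616 (minus strand): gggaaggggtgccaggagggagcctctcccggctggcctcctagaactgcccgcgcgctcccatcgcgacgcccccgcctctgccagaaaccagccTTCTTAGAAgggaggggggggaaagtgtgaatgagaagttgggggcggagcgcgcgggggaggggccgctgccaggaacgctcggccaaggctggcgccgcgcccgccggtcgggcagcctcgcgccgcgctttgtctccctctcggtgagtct
The motifs were the AP-1 motif TGAGTCA, the STAT motif TTCNNNGAA and the NF-κB motif, each sought on both strands. The Sprr1a window held TGAGTCA at 2 places, starting 146 and 116 bases before the start site. The Il6 window held 1 AP-1 match, 249 bases before the start, and 1 NF-κB match, GGGATTTTCC, 44 bases before it. In the Socs3 window the capitals mark TTCTTAGAA, a STAT match 154 bases before the start. No 2 of these matches overlapped. Among 32851 windows of the same length over all annotated starts, 4.46% held the AP-1 motif, 0.167% held it at least at 2 places, 7.02% held the STAT motif and 3.90% held the NF-κB motif. Start sites were available for 9 of the 10 genes, all but Osm, and gave 11 windows. The AP-1 motif was present in 4 of these windows, those of Sprr1a, Il6, Lif and 1 of the 2 starts of Il11. The STAT motif and the NF-κB motif were present in 1 window each. A match shows letters in a window and not a bound site.

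**Figure D1:**
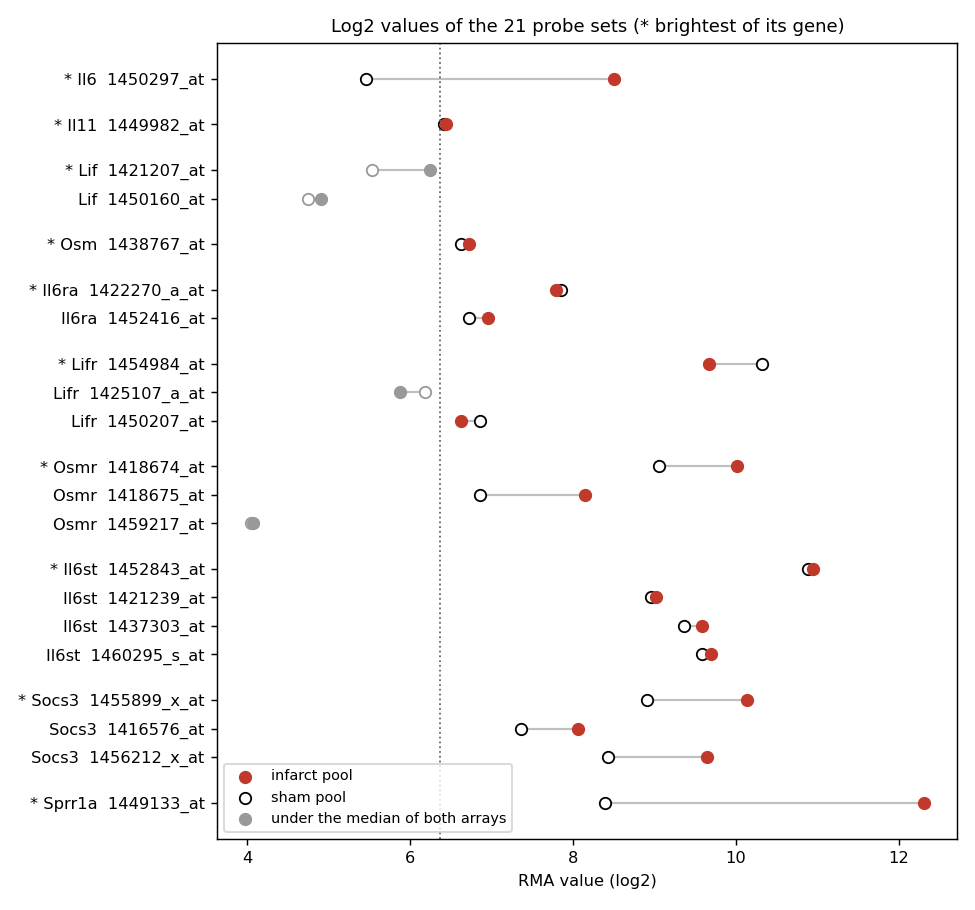
RMA values (log2, horizontal axis) of each of the 21 probe sets, with filled red points for the infarct pool and open points for the sham pool, grey points for probe sets under the median of both arrays, and the sham array median as a dotted line. The values of Sprr1a and Il6 lie farthest apart (12.31 against 8.40 and 8.50 against 5.46), those of Socs3 and of the brighter probe sets of Osmr are higher in the infarct pool, those of Lifr are lower, and those of Il6st and Il6ra nearly coincide.

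Among the ligands, Il6 alone was 2-fold higher. Il6, which encodes the acute-phase cytokine of the family, had a value of 8.50 in the infarct pool against 5.46 in the sham pool by its only probe set. The difference was 3.05 (8.26-fold), and 4 of the 11961 genes had a larger one. The sham value lay below the array median, where RMA values hold little signal, so that the size of this difference is uncertain. Osm, a cytokine made largely by macrophages and neutrophils, had 6.72 in the infarct pool against 6.62 in the sham pool (difference 0.10). Il11, which encodes a cytokine linked to fibrosis in mouse hearts, had 6.45 in the infarct pool against 6.41 in the sham pool (difference 0.03). Both Osm and Il11 were little above the array median on each array. Lif had 6.24 in the infarct pool against 5.53 in the sham pool by its brighter probe set (0.71). The other gave 4.91 in the infarct pool against 4.74 in the sham pool (0.16). Both of its probe sets were below the median on both arrays, and the 0.71 stayed under 2-fold except after centring on the hybridisation controls (1.03).

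The receptor chains went apart. Osmr was higher in the infarct pool and Lifr was lower, while the shared chain gene Il6st and the IL-6 receptor gene Il6ra differed by less than 0.1 at their brightest probe sets. Osmr had 10.01 in the infarct pool against 9.05 in the sham pool, a difference of 0.96 (1.94-fold), which lay just under 2-fold. Its second probe set gave 8.15 in the infarct pool against 6.85 in the sham pool (1.29). The third gave 4.07 in the infarct pool against 4.05 in the sham pool, and was dim on both arrays. Thus 1 of the 2 bright probe sets of Osmr passed 2-fold and the other came close to it.

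Lifr had 9.67 in the infarct pool against 10.32 in the sham pool, a difference of -0.65 (1.57-fold lower). Its other probe sets gave 6.62 in the infarct pool against 6.86 in the sham pool (-0.24), then 5.88 in the infarct pool against 6.18 in the sham pool (-0.30, dim on both arrays). All 3 probe sets were therefore lower in the infarct pool, by unequal amounts. Relative to each other, the differences of Osmr and Lifr were 1.61 apart. This gap cannot move when an array is shifted as a whole, and it was 1.16 when the probe sets of each gene were averaged.

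For Il6st, 4 probe sets were available, all of them bright. Its brightest had 10.95 in the infarct pool against 10.88 in the sham pool (0.06), and the other 3 differed by 0.07, 0.11 and 0.23. Probe sets of the same gene disagreed by an SD of 0.23 over 5190 genes, and none of these 4 values exceeded it. That SD compares probe sets on the same pair of arrays and gives no measure of the spread between mice. For Il6ra, the ligand-binding chain, the brightest probe set had 7.79 in the infarct pool against 7.85 in the sham pool (-0.06), and the other had 6.96 in the infarct pool against 6.72 in the sham pool (0.24). The pair disagreed in sign. In a whole heart, fewer cells of a type and less RNA per cell cannot be told apart, which holds for every gene given here.

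Socs3 was higher in the infarct pool by all 3 of its probe sets. The brightest had 10.14 in the infarct pool against 8.90 in the sham pool, a difference of 1.24 (2.36-fold). The second had 9.65 in the infarct pool against 8.43 in the sham pool (1.22), and the third 8.06 in the infarct pool against 7.37 in the sham pool (0.70). The identifiers of the first pair end in _x_at, a mark of probes that can bind other transcripts, and the probe set without that mark stayed under 2-fold. Socs3 was the 255th highest of the 11961 genes, whereas Osmr was the 494th.

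Sprr1a had the largest difference of all genes compared. Its value was 12.31 in the infarct pool against 8.40 in the sham pool, a difference of 3.91 (15.0-fold), and both values lay well above the array medians. The gene has 1 probe set only, so that no second measurement on these arrays can be set beside it. Its near relative Sprr1b, the neighbouring small proline-rich gene, was dim on both arrays (4.50 in the infarct pool against 4.57 in the sham pool). Of 20 other SPRR and cornified envelope genes, 13 had a probe set of their own and 3 were bright enough. These were Crct1, a cysteine-rich gene of the same gene cluster (7.81 in the infarct pool against 4.87 in the sham pool, difference 2.95), Sprr3 (0.34) and Sprr2k (0.17). Crct1 passed the brightness rule only through the infarct pool, so that its inclusion required a difference. Without that rule, 7 of the 13 lay above 0 and 5 below, with a median of 0.07. Probe sets shared by Sprr2a copies were not counted for any gene, and the brighter pair differed by 0.98 and 0.76. Of 12 keratinocyte markers, 11 had a probe set and 4 were bright enough, with 0 higher and a median of -0.39, against -0.13 over all 11 without the brightness rule. Of the 4, Lgals7 (-0.70) passed that rule only through the sham pool, and Sbsn and Krt10 differed by -0.56 and -0.22. The summed signal of the 11, as antilogs, was 670 in the infarct pool against 835 in the sham pool. Krt5 had 6.41 on both arrays, and Krt14 and Krt1, which define the layers of the epidermis, were below the median on both.

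**Figure D2:**
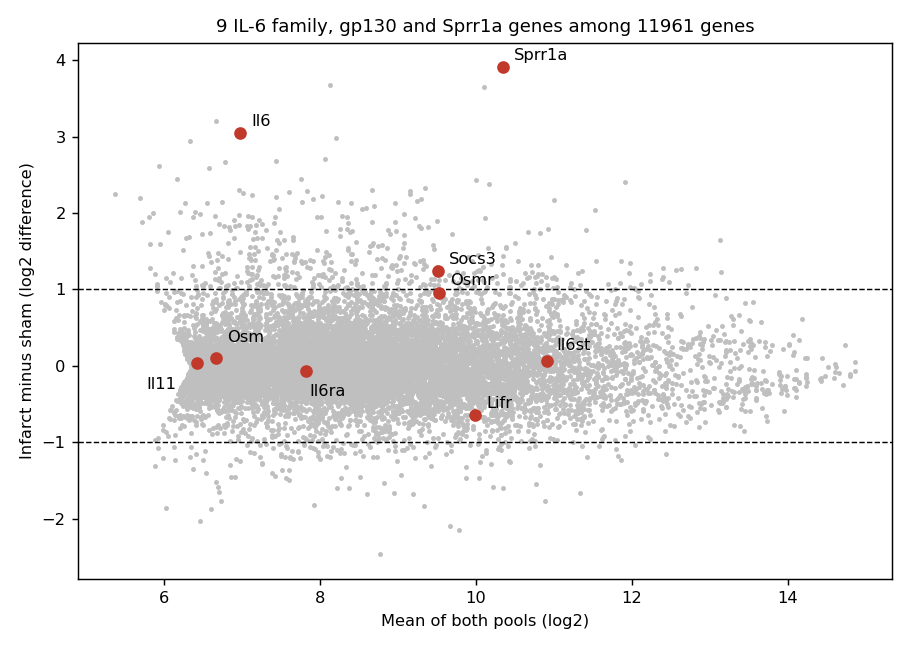
Log2 difference (infarct minus sham, vertical axis) against the mean log2 value of both pools (horizontal axis) for 11961 genes in grey, with the 9 genes of the set that were compared in red and dashed lines at 2-fold. Sprr1a lies highest (3.91), and Il6 (3.05), under the array median in the sham pool only, is the next of the 9. Socs3 (1.24) and Osmr (0.96) lie on either side of the upper line, and Lifr (-0.65) is the lowest of the 9.

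With 2 arrays, likeness between genes can only be the closeness of their differences. The genes nearest to Sprr1a were Chil3, a chitinase-like gene of macrophages (3.67), and Nmrk2, a nicotinamide riboside kinase gene of muscle (3.64). Nearest to Il6 were AA467197 (2.98) and Crct1 (2.95), and nearest to Socs3 were Emilin1, an elastic fibre gene, and Ptx3, which encodes the humoral pattern recognition protein pentraxin 3 (1.24 and 1.23). Closeness of 1 number per gene is no measure of a shared pattern. Chil3 and Crct1, like Il6, were below the median in the sham pool.

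The remaining genes of the pathway were mostly under 2-fold. Of 7 other ligand and ligand partner genes, 3 had a probe set of their own. Ctf1, which encodes cardiotrophin 1, a cytokine first described for its effect on cardiomyocytes that signals through the LIF receptor, had 7.88 in the infarct pool against 8.79 in the sham pool (-0.91, 1.87-fold lower), on 1 probe set, and passed 2-fold with the housekeeping genes as zero. Clcf1 had 6.73 in the infarct pool against 6.36 in the sham pool (0.37). This sham value lay just under the array median, so that Clcf1 was compared only through the infarct pool. Another of its probe sets had 6.79 in the infarct pool against 5.56 in the sham pool (1.22), also below the sham median. The remaining probe set differed by 0.04 and was dim on both arrays. Ebi3, a subunit of IL-27, differed by 0.05. The receptor genes Cntfr and Il27ra differed by -0.34 and -0.03. Adam10 and Adam17, proteases that can release the IL-6 receptor from the cell surface, differed by 0.50 and 0.28.

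Of the JAK and STAT genes, 6 were compared, with 0 past 2-fold and a median of -0.10. With the housekeeping genes as zero, all 6 lay below 0 (median -0.49) and Stat5a was 2-fold lower. Stat3 itself had 10.55 in the infarct pool against 10.20 in the sham pool (0.35), and its 4 probe sets ran from -0.09 to 0.37. Stat5a (-0.70) and Stat5b (-0.47), which carry signals of growth hormone and other cytokines, were lower in the infarct pool by both probe sets of each. The other probe set of Stat5a differed by -0.59, and that of Stat5b by -0.07 only. Of 15 other feedback regulators, 14 were compared and 0 passed 2-fold, with a median of 0.23. By the brightest probe sets, the phosphatase genes Ptpn1 (0.66) and Ptpn6 (0.53) and the SOCS family gene Cish (0.49) had the largest differences, and Socs6 the lowest (-0.45). The probe sets of Socs6 disagreed in sign, with another at 0.36. Pias1 was lower by all 4 of its probe sets, down to -0.89. Socs1, another inhibitor of JAK kinases, was dim on both arrays.

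A list of 30 genes known as targets of STAT3 or of IL-6 type cytokines lay mostly above 0. Of these, 25 were compared, 21 were above 0 and 4 were at least 2-fold higher (3.73% over all genes), with a median of 0.47 beside 0 over all genes. With the housekeeping genes as zero, 14 of the 25 were above 0, 2 were 2-fold higher and 1 was 2-fold lower (median 0.09). With the hybridisation controls as zero, 24 were above 0 and 10 were 2-fold higher (median 0.79), and 3 were 2-fold higher under quantile normalisation or with the poly-A controls as zero. The 4 as deposited were Birc5, an inhibitor of apoptosis that is also a mitotic gene (2.14), Timp1, a metalloprotease inhibitor (12.55 in the infarct pool against 10.52 in the sham pool, difference 2.04), Lcn2, an iron-trafficking protein of neutrophils and stressed tissue (1.27), and the metallothionein gene Mt2 (1.00). Steap4, a metalloreductase gene, was the lowest (-0.62). Dim on both arrays were the fibrinogen genes Fga, Fgb and Fgg, hepatic acute-phase targets, and the regenerating-protein genes Reg3b and Reg3g. All of these dim genes lay below 0 by their brightest probe sets. Without the brightness rule, 21 of the 30 targets lay above 0 and 9 below, with a median of 0.34. Most of these targets respond to other signals too, and which signal moved them was not tested.

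Some markers of macrophages and neutrophils were 2-fold higher in the same pool as Il6 and Socs3, as were 3.73% of all genes compared. All 8 macrophage markers lay above 0, and Cd68 (1.24), Itgam (1.22) and Fcgr1 (1.12) were the 3 past 2-fold (median 0.68). With the housekeeping genes as zero, 7 lay above 0, the median was 0.30 and 0 were 2-fold higher. As deposited, 0 passed a threshold of 1.4. Their summed signal was 21517 in the infarct pool against 14734 in the sham pool. Of 8 neutrophil markers, 6 had a probe set and 4 were bright enough. Past 2-fold were S100a8 (1.72), S100a9 (1.54) and Csf3r (1.11), whereas Cxcr2 (6.36 in the infarct pool against 5.91 in the sham pool) passed the brightness rule only through the infarct pool, which fixed its sign. Without that rule, 5 of the 6 lay above 0, with a median of 0.78 and Elane at -0.06. With the housekeeping genes as zero, the median of the 4 was 0.94 and 2 were 2-fold higher. The summed signal of the 6 was 2309 in the infarct pool against 913 in the sham pool. Of 8 cardiomyocyte markers, Ryr2 (-0.39), Tnni3 (-0.38) and Nppa (0.27) had the largest differences, and Nppa alone lay above 0. The 8 had a median of -0.11, with 0 past 2-fold. The median was 0.20 with the hybridisation controls as zero, -0.50 with the housekeeping genes as zero (8 of 8 below 0) and -0.25 when probe sets were averaged. Their summed signal was 160881 in the infarct pool against 170091 in the sham pool. The defining cardiomyocyte genes Myh6, Tnnt2 and Myl2 had values of 14.6 to 14.9 in both pools, near the top of the scale, and the lowest differences among other probe sets of Myh6 and Tnnt2 were -0.67 and -0.60. Medians were 0.20 over 6 fibroblast markers, 0.19 over 5 endothelial markers, 0.42 over 4 smooth muscle markers and -0.04 over 3 T cell markers, and of these genes the fibroblast gene Postn (1.28) alone passed 2-fold. With the housekeeping genes as zero, these medians were -0.19, -0.20, 0.03 and -0.43. In that setting 0 fibroblast markers were 2-fold higher and 1 smooth muscle marker was 2-fold lower. As deposited, 4 of the 6 fibroblast markers lay above 0 and 2 below, with Dcn the lowest (-0.34). Of the 5 endothelial markers, 3 lay above 0 and 2 below, down to Tek (-0.15). Of the 4 smooth muscle markers, 3 lay above 0 and 1 below, which was Myh11 (-0.77 and -0.18 by its 2 probe sets). The part of these cells in the differences of Il6, Socs3, Osmr and Sprr1a was not tested.

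**Figure D3:**
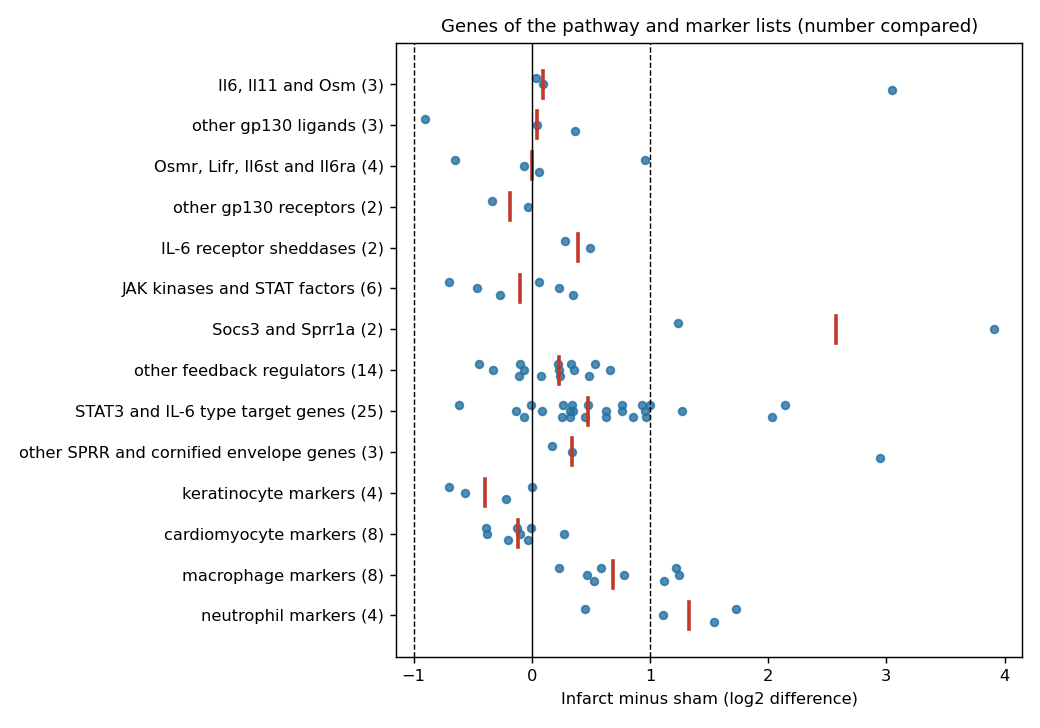
Log2 difference (infarct minus sham, horizontal axis) of each gene bright enough to be compared, 1 point per gene, by pathway or marker list, with the list median as a red bar, the number of genes compared in parentheses and dashed lines at 2-fold. STAT3 and IL-6 type targets (median 0.47), macrophage markers (0.68) and neutrophil markers (1.33) lie mostly to the right of 0, and JAK and STAT genes (-0.10) on both sides of it. Crct1 (2.95), bright enough only in the infarct pool, stands apart in its list.

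Where the zero of the scale lies changed the sign of the small differences. The mean difference of 9 housekeeping genes was 0.39, that of 18 hybridisation control probe sets was -0.32 and that of 24 poly-A control probe sets was 0.06. After centring on the housekeeping genes, which moves the median of all genes by -0.39, 182 genes were 2-fold higher and 689 lower (20.9% of the counted genes higher, against 74.7% as deposited). Centring on the hybridisation controls moved that median by 0.32 and gave 962 higher and 40 lower (96.0% higher). Il6 ranged from 2.66 to 3.36 and Sprr1a from 3.52 to 4.23 over the 10 settings tried, and both were past 2-fold in each. Socs3 was 0.85 after centring on the housekeeping genes and 0.70 without probe sets of the _x_at and _s_at kinds, hence under 2-fold in both. Osmr reached 1.28 when centred on the hybridisation controls, and Lifr -1.04 when centred on the housekeeping genes, so that each passed 2-fold in that setting. Osmr lay above 0 and Lifr below 0 in all 10 settings. Some of these settings could not move a value, since changing the brightness filter moves none. Averaging probe sets cannot move Il6 or Sprr1a. Leaving out the _x_at and _s_at probe sets cannot move Il6, Sprr1a, Osmr or Lifr. The signs of Il11, Osm and Il6st turned after centring on the housekeeping genes, that of Il11 also on the poly-A controls. For Il6ra the sign turned after centring on the hybridisation controls and when its probe sets were averaged. Centring on the housekeeping genes also put the median of the feedback regulators at -0.16.

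**Figure D4:**
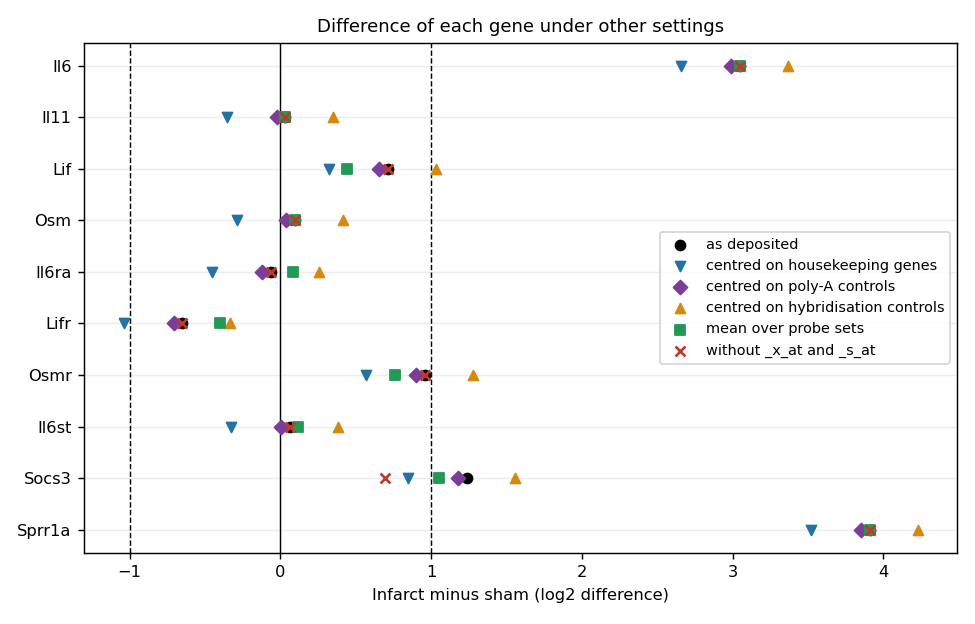
Log2 difference (infarct minus sham, horizontal axis) of each of the 10 genes as deposited and under 5 other settings, 1 symbol per setting, with a solid line at 0 and dashed lines at 2-fold. All symbols of Il6 and Sprr1a lie far to the right of 2-fold, those of Socs3 and Osmr lie on both sides of it, those of Lifr are all below 0, and those of Il11, Osm, Il6st and Il6ra lie on both sides of 0.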

How the data were processed

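Hearts of 3 mice per group were pooled, and biotinylated cRNA of each pool was hybridised to 1 GeneChip Mouse Genome array by the authors. The deposited values are RMA values on the log2 scale per the labels: background-corrected, normalised between the 2 arrays and summarised per probe set; the version of RMA is not given in the sources used here. RMA gives both arrays nearly the same distribution, so a change in total mRNA cannot be seen. Probe sets were named through the array annotation: 34945 had 1 gene symbol, 932 several and 9160 none, and these last kinds and 64 control probe sets were not compared. By Entrez identifier, 34741 matched RefSeq (GRCm38.p6). The genes of the set, the pathway and marker lists and the settings were chosen with earlier results of these data known. With 1 array per group, no p-value was computed, and the small number of arrays limits how precise any value is. Named genes were the 10 genes, and of most lists the 3 largest differences and the largest of opposite sign. Of the fibroblast, endothelial and smooth muscle lists, Postn, Dcn, Tek and Myh11 were named. No gene of the T cell and housekeeping lists was named. For each gene of the set past 2-fold, the 2 nearest by difference were also named. Other genes (Sprr1b, Myh6, Tnnt2, Myl2, Mt2, Krt5, Krt14, Krt1, Socs1, Pias1, Cxcr2, Elane and the dim target genes) were named after their values were seen. Alternatives were median centring, quantile normalisation, removal of a loess trend (span 0.4), centring on housekeeping genes, hybridisation or poly-A controls, averaging probe sets, leaving out probe sets ending in _x_at or _s_at, no filter or the 75th percentile as filter on dim probe sets, and a threshold of 1.4. The procedure was run on simulated data, without the brightness rule, with shifts past 2-fold and noise smaller than the disagreement between probe sets. Such shifts were bound to be found, so that this run checks the code only. Python 3.11.15, pandas 2.3.3, statsmodels 0.14.6 and matplotlib 3.10.9 were used.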

Additional observations from a re-analysis of the deposited data

How the results depend on the processing

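With 1 pooled array per group no sample could be left out, and no paired analysis was possible because each group has 1 sample. The count of 3 genes at least 2-fold higher ran from 2 to 4 over the settings, with 2 after centring on the housekeeping genes, without the _x_at and _s_at probe sets and at a threshold of 1.4 (Il6 and Sprr1a in each). Centring on the housekeeping genes added 1 gene at least 2-fold lower (Lifr) and gave a median of the set of -0.29, with 182 genes of the array higher and 689 lower. Centring on the hybridisation controls gave a median of 0.42, with 962 genes higher and 40 lower. The median of the set was 0.41 with no filter on dim probe sets, which adds Lif, and 1.10 with the 75th percentile as the filter, which leaves fewer genes. At a threshold of 1.4, 178 genes of the array were higher and 34 lower. What depth limits here is signal: Il6 in the sham pool and Lif on both arrays were under the array median.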
